A study of Mus musculus with 12 samples.

Results

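The genes described here are 35 genes of autophagy and of the lysosome, chosen by name and matched through their Ensembl IDs without version to rows of a gastrocnemius and a soleus expression table. Each table held 34866 gene IDs, and all 35 members had a row in both. All 35 also passed the expression filter, a mean of at least 1 TPM over the libraries compared, in each comparison. They were grouped by role into 9 genes of initiation and phagophore growth, 6 of the conjugation machinery, the 5 ATG8 proteins, 3 cargo receptors, 6 lysosomal enzymes, 2 lysosomal membrane proteins, 2 transcription factors and 2 factors of protein quality control.

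The samples were gastrocnemius and soleus RNA of male mice aged 4 weeks on the C57BL/6 background, in 12 libraries that form 4 groups of 3. Control (Ctrl) mice were Phf2 flox/flox;Acta1 Cre- and knockout (KO) mice were Phf2 flox/flox;Acta1 Cre+, so every mouse carried the floxed alleles and the groups differed in the Cre transgene. The study asked what PHF2, a histone demethylase family protein with a plant homeodomain finger, does in skeletal muscle. Gastrocnemius is mainly a fast-twitch muscle of the calf, and soleus lies beneath it and is rich in slow-twitch, oxidative fibres. Acta1 is the skeletal muscle actin gene and its promoter is active in muscle fibres, so Cre is directed to fibres and not to the endothelial, connective tissue and immune cells that bulk muscle also holds. Phf2 was not measured by cell type. Not stated in the labels are the floxed exons, whether the 3 libraries of a group come from separate mice, or whether a gastrocnemius and a soleus library share a mouse. The p-values therefore measure only the spread between these libraries. In bulk muscle, fewer cells of a type and less RNA per cell cannot be told apart.

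Autophagy encloses damaged organelles, protein aggregates and glycogen in a membrane that grows into an autophagosome. ULK kinases start the process, a lipid kinase complex around BECN1 marks the membrane, and a conjugation cascade attaches ATG8 proteins (LC3 and GABARAP) to it. Receptors such as SQSTM1 and BNIP3 link cargo to ATG8 proteins, and cathepsins and other enzymes digest the content once the autophagosome has fused with a lysosome. In skeletal muscle the pathway is known for clearing mitochondria and glycogen and for removing Z-disc proteins damaged by contraction, and defects in GAA, LAMP2, BAG3 or VCP cause inherited muscle disease in humans.

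Values are TPM, a measure of transcript abundance in which values are scaled to the same sum within each library and corrected for transcript length, so levels can be set against each other between genes. Read depth cannot be recovered from TPM and is unknown here. Phf2 was lower in KO than in Ctrl in both muscles, at 72.1% of the Ctrl mean in gastrocnemius (9.87 ± 1.57 TPM in Ctrl and 7.12 ± 0.445 in KO, SD, n = 3) and at 61.4% in soleus (13.0 ± 2.64 and 7.99 ± 1.14, n = 3). The groups did not overlap in either muscle, and a two-sided exact permutation test gave p = 0.1 in each, the lowest value possible with 3 against 3 libraries (limma adjusted p = 0.0601 in gastrocnemius and 0.326 in soleus). In gastrocnemius, genotype moved with the make-up of the libraries. The Ctrl libraries had 1018 to 1160 processed pseudogenes above 0 and the predicted gene Gm12338 at 0, and the KO libraries had 1539 to 1781 and Gm12338 at 99.4 to 194 TPM. Mitochondrially encoded genes took 22.0% to 24.1% of the TPM in gastrocnemius Ctrl and 18.1% to 20.7% in KO, without overlap. In soleus the presence of Gm12338 did not follow genotype, with values of 0 in Ctrl 2, KO 1 and KO 3. Soleus KO 3 stood apart, with 39.0% of its TPM on mitochondrially encoded genes against 24.5% to 29.6% in the other soleus libraries. The summed level of 6 myofibre markers was 98537 to 107008 TPM in gastrocnemius and 49427 to 74002 in soleus, with none at 0. KO 3 was the lowest of the 6 soleus libraries for 20 of the 35 members (57.1%), as it was for 39.7% of all 12148 genes tested there.

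The 35 members together made up 2349 to 2588 TPM in gastrocnemius Ctrl, 2500 to 2605 in gastrocnemius KO, 2759 to 2972 in soleus Ctrl and 2468 to 2964 in soleus KO. The ranges overlapped between genotypes in both muscles. Sqstm1, the ubiquitin-binding receptor p62, was the most abundant member in gastrocnemius at 272 to 316 TPM over the 6 libraries, and the mitophagy receptor Bnip3 took that place in soleus at 290.2 to 343. Atg14, the subunit that directs the lipid kinase complex to autophagy, was the least abundant in each group, with 2.94 to 5.27 TPM over all 12 libraries.

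Within each role the levels were spread widely. Of the initiation genes, Becn1 had the highest mean in each group, at 54.0 ± 6.53 TPM in gastrocnemius Ctrl, followed there by Atg9a, which carries lipid to the growing membrane, at 51.6 ± 6.84, and by Wipi1, a binder of the lipid mark, at 35.2 ± 2.50 (SD, n = 3). Becn1 and Atg9a did not differ beyond their spread there, and in soleus the ranges of Becn1 and Wipi1 overlapped in both genotypes. The kinases Ulk2 and Ulk1 and their partner Atg13 followed at 27.4 ± 1.75, 23.4 ± 2.23 and 22.1 ± 0.286, and Wipi2 at 12.4 ± 1.00. Pik3c3, the lipid kinase itself, reached only 6.98 ± 0.841. The conjugation genes were all low. Atg4b, the protease that trims ATG8 proteins, stood at 16.0 ± 2.67 TPM in gastrocnemius Ctrl, next to the E2-like enzyme Atg3 at 14.2 ± 0.397, Atg12 at 13.2 ± 0.582, Atg16l1 at 10.4 ± 0.306, Atg5 at 8.07 ± 0.291 and the E1-like enzyme Atg7 at 3.95 ± 0.382. The ranges of Atg4b and Atg3 overlapped.

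Genes for the proteins that coat the membrane or fill the lysosome were higher. In gastrocnemius Ctrl the order of the ATG8 genes was Map1lc3a at 168 ± 4.37 TPM, Map1lc3b at 109.7 ± 5.02, Gabarap at 94.9 ± 2.56, Gabarapl2 at 71.2 ± 2.03 and Gabarapl1 at 24.9 ± 2.41 (SD, n = 3), and no neighbours in this order overlapped. Among the lysosomal enzymes the aspartic protease Ctsd led with 262 ± 8.22 TPM, followed by the cysteine proteases Ctsb at 154 ± 10.4 and Ctsl at 84.5 ± 11.8. Gaa, which breaks down glycogen in lysosomes, stood at 81.5 ± 14.5, the serine carboxypeptidase Ctsa at 51.6 ± 4.01 and the cysteine carboxypeptidase Ctsz at 22.3 ± 1.16. Ctsl and Gaa overlapped in range. Of the membrane proteins Lamp1 stood at 207 ± 10.8 TPM and Lamp2 at 47.2 ± 4.89. Of the transcription factors that drive lysosomal genes, Tfeb stood at 41.3 ± 6.27 and Tfe3 at 4.31 ± 0.487. The ATPase Vcp, which pulls ubiquitinated proteins out of complexes, reached 229.8 ± 13.2, and Bag3, the co-chaperone that hands damaged Z-disc proteins to autophagy, 56.6 ± 7.11.

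**Figure D1:**
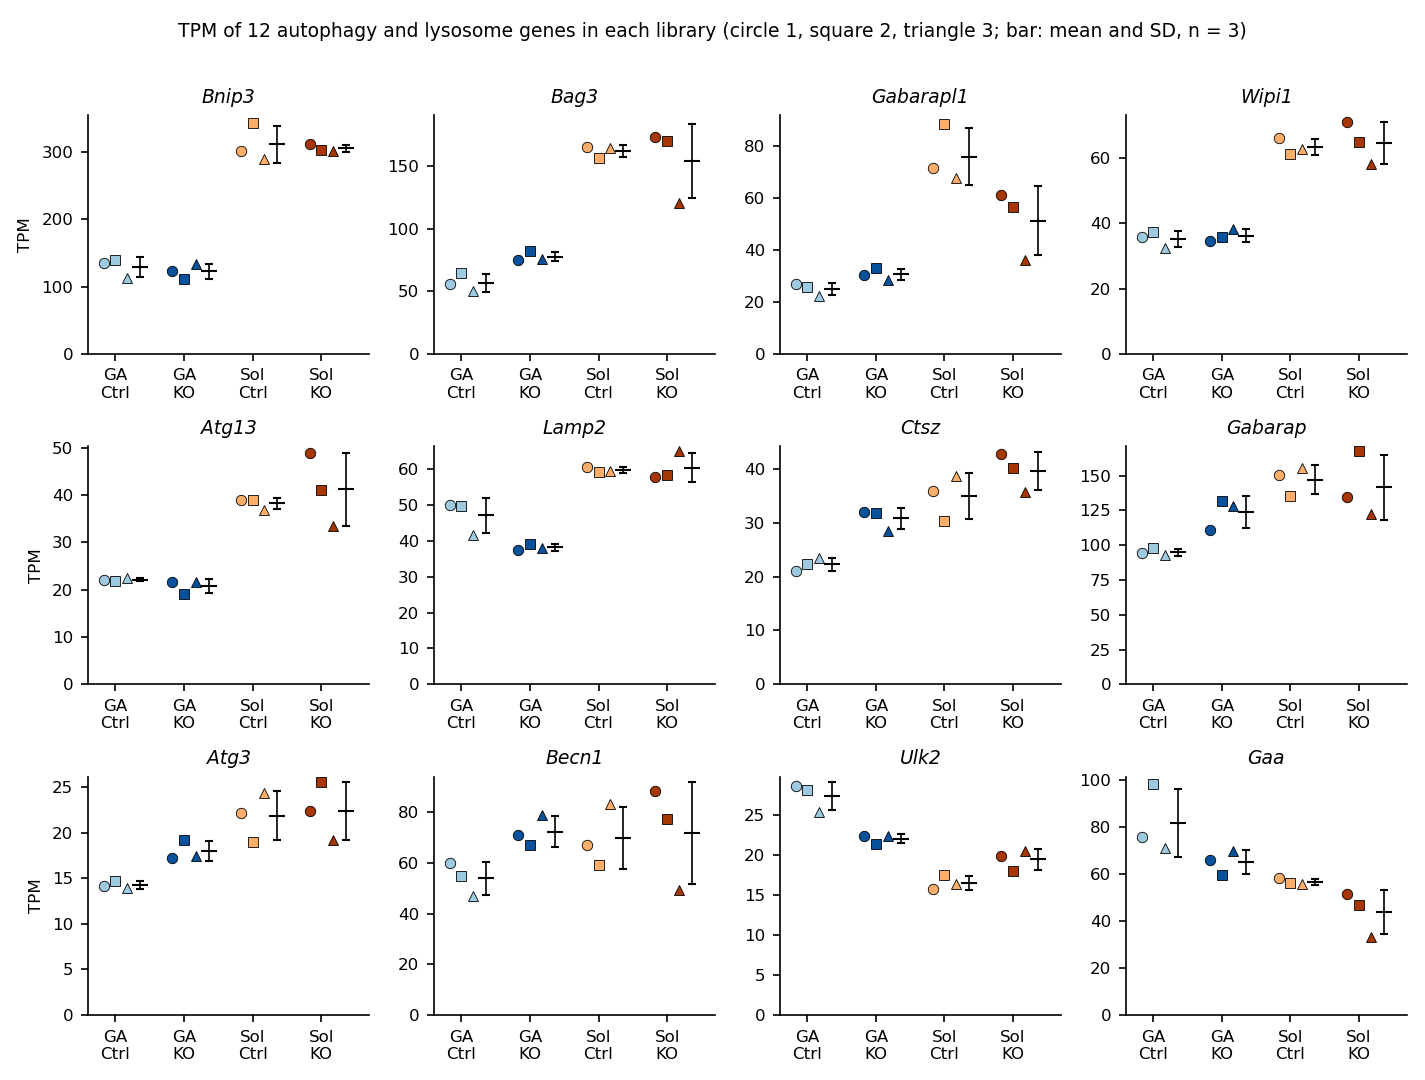
Level of 12 members in TPM (vertical axes, each from 0) in each library of gastrocnemius (GA) and soleus (Sol), with circles, squares and triangles for replicates 1, 2 and 3 and bars for the mean and SD (n = 3). Bnip3, Bag3, Gabarapl1, Wipi1 and Atg13 lay higher in each soleus library than in any gastrocnemius library, while Becn1, Atg3, Gabarap and Ctsz lay higher in the 3 gastrocnemius KO libraries than in the 3 Ctrl libraries.

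TFEB and TFE3 bind a short palindrome, CACGTG, which lies near the start of many lysosomal genes and is also read by other factors of the same DNA-binding class. RefSeq promoters of build GRCm38.p6, each of 300 bases from 250 before the start to the 50 bases that begin with it, were found for 28 of the 35 members. Becn1, Pik3c3, Atg12, Atg16l1, Map1lc3a, Bnip3l and Ctsb were not matched. CACGTG, which reads the same on both strands, was in the promoters of 10 of the 28 (35.7%), against 8.09% of all 27025 genes with a promoter entry. All genes here had no expression filter, whereas every member passed one, so the sets are unlike. In a wider set of genes of the same pathways, described further below, it was in 26 of the 119 with an entry (21.8%). The longer form CACGTGAC, which contains CACGTG and was searched on both strands, was in 6 of the 28 (21.4%) against 2.55% of all genes. TCACGTGA was in 3 of the 28 against 1.12%. GTAAACA, a core bound by FOXO factors, was in 0 of the 28 against 4.05% of all genes. GAANNTTC, the unit of the heat shock element, was in Vcp and Bag3 (7.14%) against 9.04%. Both were searched on both strands. A match describes letters in these windows and not a bound site.

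The promoter of Lamp1 is shown because it held the most copies of CACGTG among the members, 4, in a gene that was not called in any of the 5 comparisons. The capitals in the lines that follow mark CACGTG. Lamp1 lies on chromosome 8, and its promoter is chr8:13158911-13159210 on the plus strand of GRCm38.p6.
Lamp1: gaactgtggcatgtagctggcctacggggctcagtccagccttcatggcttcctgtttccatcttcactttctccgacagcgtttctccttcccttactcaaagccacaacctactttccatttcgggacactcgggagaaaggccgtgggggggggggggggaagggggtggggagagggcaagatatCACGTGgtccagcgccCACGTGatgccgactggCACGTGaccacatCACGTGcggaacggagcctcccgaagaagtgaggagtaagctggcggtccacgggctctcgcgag
The promoters of Bnip3 (chr7:138909457-138909756, minus strand) and Gabarapl1 (chr6:129532942-129533241, plus strand) are shown because both genes were called higher in soleus in each alternative. Bnip3 held 1 copy of CACGTG and Gabarapl1 none.
Bnip3: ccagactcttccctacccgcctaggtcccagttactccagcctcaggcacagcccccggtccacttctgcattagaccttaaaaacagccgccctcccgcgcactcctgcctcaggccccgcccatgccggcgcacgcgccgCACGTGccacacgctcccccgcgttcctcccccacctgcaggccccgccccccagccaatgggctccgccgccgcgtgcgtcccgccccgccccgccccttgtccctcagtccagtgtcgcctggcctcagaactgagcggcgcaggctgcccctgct
Gabarapl1: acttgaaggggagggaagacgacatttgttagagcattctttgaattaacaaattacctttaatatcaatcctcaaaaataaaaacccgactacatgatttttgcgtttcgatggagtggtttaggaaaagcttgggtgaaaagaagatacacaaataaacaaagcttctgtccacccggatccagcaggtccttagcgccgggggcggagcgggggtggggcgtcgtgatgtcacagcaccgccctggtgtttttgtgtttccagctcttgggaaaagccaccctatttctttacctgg
Bag3 rose in gastrocnemius KO and was higher in soleus, and its promoter (chr7:128523333-128523632, plus strand) held no CACGTG. The capitals in its line mark the GAANNTTC match, in the last 8 bases of the window and thus after the start.
Bag3: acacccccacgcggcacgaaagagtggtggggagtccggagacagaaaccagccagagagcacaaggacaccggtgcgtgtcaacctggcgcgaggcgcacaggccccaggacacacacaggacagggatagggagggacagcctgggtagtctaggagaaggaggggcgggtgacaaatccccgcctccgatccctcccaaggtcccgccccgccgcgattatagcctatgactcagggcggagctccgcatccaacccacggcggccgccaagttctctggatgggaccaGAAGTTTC
Windows of 30 bases around CACGTG, again in capitals, are shown for Atg3 and Ctsa, which each held 2 copies close together, and for Gaa. In Atg3 the copies began 94 and 71 bases before the start (chr16:45158723-45158752 and chr16:45158746-45158775, plus strand). In Ctsa they began 12 bases before and 5 bases after it (chr2:164833749-164833778 and chr2:164833766-164833795, plus strand). In Gaa the copy began 140 bases before the start (chr11:119267811-119267840, plus strand).
Atg3: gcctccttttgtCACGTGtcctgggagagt
Atg3: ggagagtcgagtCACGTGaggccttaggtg
Ctsa: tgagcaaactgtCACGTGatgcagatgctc
Ctsa: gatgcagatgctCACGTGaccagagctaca
Gaa: tttctgtgcgatCACGTGtttgactctgac
The other members with CACGTG were Ctsd with 2 copies and Atg5, Atg7, Atg14 and Ctsl with 1 each. In gastrocnemius KO 1 of the 10 members with CACGTG was called (Atg3) and 4 of the 18 without it, where 14.3% of all genes were. Between the muscles in Ctrl 3 of the 10 (Atg3, Bnip3 and Gaa) and 11 of the 18 were called, against 40.8% of all genes. In KO 3 of the 10 (Atg5, Bnip3 and Gaa) and 7 of the 18 were, against 35.9%.

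Knockout of Phf2 was accompanied in gastrocnemius by higher levels of 5 members, Becn1, Atg3, Gabarap, Ctsz and Bag3, and by a lower level of 1, Ulk2. No change exceeded 1.38-fold. Calls were made with limma at a threshold of 0.05, after Benjamini-Hochberg adjustment over the 11911 genes tested. The 6 members called were 17.1% of the 35, near the 14.3% of all genes that were called in this comparison, of which 9.32% were higher and 4.99% lower. At an unadjusted p under 0.05 there were 12 members (34.3%) against 32.2% of all genes. The groups did not overlap for 17 members, 8 higher and 9 lower in KO, 48.6% of the 35 against 37.7% of all genes. The median log2 fold change of the 35 members was 0.0053, and that of all genes 0.034. The share of members called was thus close to the background.

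Ctsz, a lysosomal carboxypeptidase, had the smallest p. Its level was 21.1, 22.3 and 23.5 TPM in the Ctrl libraries 1, 2 and 3 and 32.0, 31.8 and 28.6 in the KO libraries, in that order. The KO libraries were all above the Ctrl libraries, and Ctsz rose 1.38-fold (log2 fold change 0.45, SE 0.076, adjusted p = 0.0133). Bag3 stood at 55.4, 64.3 and 50.2 TPM in Ctrl and 74.8, 81.7 and 76.0 in KO. These groups did not overlap either, and Bag3 rose 1.37-fold (log2 0.45, SE 0.10, adjusted p = 0.0263). Its client filamin C, encoded by Flnc, was also called, with a log2 fold change of 0.42 (SE 0.10, adjusted p = 0.0341), but was outside the rule for named genes in this comparison and was picked after its values were seen.

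Gabarap and Atg3 act next to each other, since ATG3 is the enzyme that attaches GABARAP and LC3 to the membrane. Gabarap was at 94.4, 97.6 and 92.6 TPM in Ctrl and 111, 132 and 128 in KO, and Atg3 at 14.1, 14.7 and 13.9 and 17.2, 19.2 and 17.4. Neither gene's groups overlapped. Gabarap rose 1.30-fold (log2 0.37, SE 0.08, adjusted p = 0.0254) and Atg3 1.26-fold (log2 0.31, SE 0.072, adjusted p = 0.0328). The other conjugation genes were not called, and 3 of them, Atg5, Atg12 and Atg16l1, had KO libraries that all lay below the Ctrl libraries, with log2 fold changes of -0.18, -0.10 and -0.11. Of the other ATG8 genes, Gabarapl1 had a log2 fold change of 0.29 (adjusted p = 0.0855) and Gabarapl2 of -0.16 (adjusted p = 0.136), in opposite directions and not called.

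The initiation genes Becn1 and Ulk2 were called in opposite directions. Becn1 was at 60.1, 54.7 and 47.1 TPM in Ctrl and 71.0, 66.9 and 79.0 in KO, and Ulk2 at 28.6, 28.1 and 25.4 and 22.4, 21.4 and 22.4. The groups did not overlap for either gene. Becn1 rose 1.34-fold (log2 0.42, SE 0.11, adjusted p = 0.0421), and Ulk2 fell to 0.806 of its Ctrl mean (log2 -0.30, SE 0.072, adjusted p = 0.0364). Its paralog Ulk1 stood at 23.4 ± 2.23 TPM in Ctrl and 21.9 ± 3.44 in KO, with overlapping groups (adjusted p = 0.624). The lipid kinase subunits that bind BECN1 were not called, with log2 fold changes of -0.17 for Pik3c3 and 0.034 for Atg14.

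Several members without a call still had separate groups in gastrocnemius. Lamp2, a membrane protein needed for fusion with lysosomes, was at 50.1, 49.8 and 41.5 TPM in Ctrl and 37.4, 39.2 and 38.0 in KO (log2 -0.29, adjusted p = 0.0649). Gaa was at 75.7, 98.0 and 70.9 and 65.8, 59.4 and 69.7 (log2 -0.31, adjusted p = 0.145). For both genes each KO library was below each Ctrl library, but neither was called. Bnip3l and Ctsl lay higher in each KO library, with log2 fold changes of 0.30 and 0.35 (adjusted p = 0.0953 and 0.104). Sqstm1, Map1lc3b, Ctsa, Ctsb and Vcp had log2 fold changes between -0.0061 and 0.039, with overlapping groups.

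The 6 calls in gastrocnemius rested on few libraries. Without 1 library at a time, the number of members called was 0 without Ctrl 1, 2 without Ctrl 2, 4 without Ctrl 3, 2 without KO 1, 0 without KO 2 and 1 without KO 3, and the calls over all genes fell to between 547 and 1596. Ctsz was called in 4 of these 6 fits and the other 5 in at most 2. Scaling also mattered. The share of higher genes among all calls was 65.1% as deposited, 53.1% with median-ratio scaling, 45.8% with quantile normalization and 48.5% after rescaling without mitochondrially encoded genes. The members called were then 5 higher and 2 lower, 2 higher and 4 lower, and 1 higher and 1 lower. Within soleus, where Gm12338 did not follow genotype, libraries with Gm12338 differed from libraries of the same genotype without it by a mean log2 difference of 0.28 in Becn1, 0.28 in Atg3, 0.28 in Gabarap, 0.17 in Ctsz, 0.15 in Bag3 and -0.14 in Ulk2. Without soleus KO 3 these were 0.075, 0.23, 0.25, 0.10, 0.024 and -0.12 in the same order. Members that were not called had such differences too, as Bnip3l with 0.37, Atg4b with 0.35 and Tfeb with 0.32, and 23 of the 35 were above 0 (19 without soleus KO 3). The part of this library difference in the gastrocnemius calls was not tested. The summed level of 12 macrophage markers was 88.9 to 129 TPM in gastrocnemius Ctrl and 106 to 182 in KO, with none of the 12 at 0. These ranges overlapped, and none of the 12 was called, but 10 had log2 fold changes above 0 and 2 below (median 0.35). The summed level of 6 fast-fibre markers was 64308 to 66967 TPM in Ctrl and 73533 to 78730 in KO, without overlap. Of the 6, 3 had log2 fold changes above 0, of which Tnni2 and Tnnt3 were called higher. The other 3, Myh1, Mybpc2 and Atp2a1, were below 0 and not called. Of 6 general myofibre markers 3 had log2 fold changes above 0 and 3 below. Des and Tnnc2 were called higher, while Ckm and Mb lay lower in each KO library and were not called. Of 8 fibroblast markers 5 were above 0 and 3 below, and Postn was called higher. The sum of 4 adipocyte markers was 21.2 to 47.0 TPM in Ctrl and 34.1 to 171 in KO, and none of the 3 that were tested was called. The part of these cells and fibres in the members' calls was not tested. Reads of Becn1 and Ctsz can also overlap Cntd1 and Nelfcd on the opposite strand. Other members have such overlaps, among them Bnip3, Gabarapl1 and Map1lc3b, which were called between the muscles. Atg9a, Ctsd and Ctsl overlap another annotated gene on the same strand. The libraries were made with a directional kit, and how strand was used in counting is not given in the sources used here. Genes with near-identical copies, processed pseudogenes among them, can share reads with those copies.

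In soleus none of the 35 members was called in KO against Ctrl, where limma called 0.0741% of 12148 genes, 9 in all (0.0165% higher and 0.0576% lower). At an unadjusted p under 0.05 there was 1 member, Gabarapl1 (2.86% of the members against 9.07% of all genes), and the groups did not overlap for 6 members (17.1% against 16.8%). The median log2 fold change was -0.023 in the members and -0.015 in all genes. Gabarapl1 was at 71.5, 88.6 and 67.8 TPM in Ctrl and 61.3, 56.5 and 36.1 in KO. Each KO library was below each Ctrl library, with KO 3 the lowest, and its log2 fold change came to -0.58 (SE 0.21, adjusted p = 0.481). Without KO 3 the log2 fold change was -0.35 (adjusted p = 0.524). Gaa was at 58.0, 55.9 and 55.7 TPM in Ctrl and 51.3, 46.6 and 33.2 in KO, again with each KO library lower (log2 -0.39, SE 0.17, adjusted p = 0.551).

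Ctsl, Ulk2 and Map1lc3b had KO libraries that all lay above the Ctrl libraries in soleus. Ctsl was at 119, 93.5 and 114 TPM in Ctrl and 119.9, 151 and 142 in KO (log2 0.33, SE 0.15, adjusted p = 0.553). Ulk2 was at 15.8, 17.5 and 16.4 and 19.9, 18 and 20.5 (log2 0.22, SE 0.11, adjusted p = 0.609). None of these differences passed the test. Map1lc3b was at 87.7, 95.8 and 88.1 TPM and 105, 105 and 106 (log2 0.22, SE 0.11, adjusted p = 0.609). The members called in gastrocnemius KO had soleus KO log2 fold changes of 0.011 for Becn1, 0.03 for Atg3, -0.065 for Gabarap, 0.18 for Ctsz, -0.091 for Bag3 and 0.22 for Ulk2. Their soleus groups overlapped, except those of Ulk2. The soleus libraries were widely spread for Becn1, which was at 88.2, 77.4 and 49.4 TPM in KO, with an SE of 0.23 against 0.11 in gastrocnemius.

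**Figure D2:**
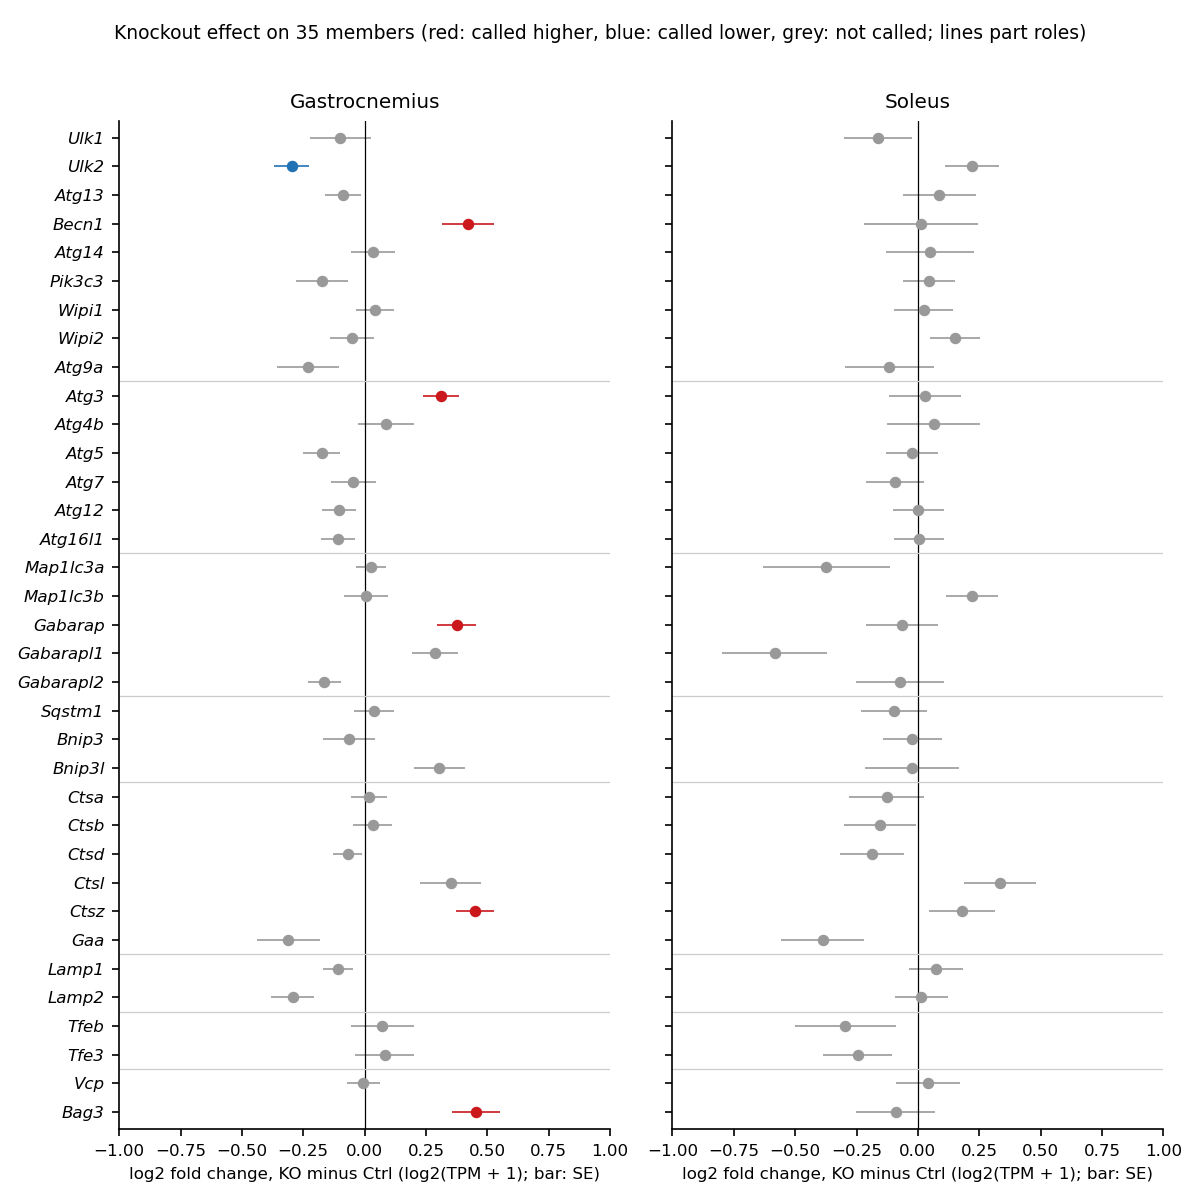
Log2 fold change of KO against Ctrl (horizontal axis, on the log2(TPM + 1) scale, with its SE as a bar) of the 35 members in gastrocnemius and soleus, with lines between roles, red for members called higher and blue for lower. In gastrocnemius 5 members are red and 1 is blue, and in soleus none is called.

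The difference between the muscles in the KO effect was tested directly, by subtracting the gastrocnemius effect from the soleus effect in 1 limma model of all 12 libraries. No member passed, against 0.273% of 12091 genes. At an unadjusted p under 0.05 there were 5 members (14.3%) against 20.7% of all genes. The smallest p was that of Ulk2, whose KO libraries lay below Ctrl in gastrocnemius and above Ctrl in soleus (difference 0.52, SE 0.12, adjusted p = 0.0891). It was called with array weights (adjusted p = 0.0353) and without soleus KO 2 (adjusted p = 0.045), and its adjusted p ranged from 0.0353 to 0.201 over the alternatives. Gabarapl1 had a difference of -0.87 (SE 0.25, adjusted p = 0.122), with higher KO libraries in gastrocnemius and lower ones in soleus. The other 3 were Bag3 at -0.54, Gabarap at -0.44 and Lamp2 at 0.31 (adjusted p = 0.171, 0.189 and 0.21).

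In both genotypes soleus had more Bnip3, Bag3, Gabarapl1, Wipi1 and Atg13 than gastrocnemius, by 1.68-fold to 3.05-fold, and more Lamp2 and Ctsz, and it had less Gaa. Limma called 15 members between soleus and gastrocnemius in Ctrl, 10 higher and 5 lower in soleus (42.9% of the 35), where 40.8% of 12091 genes were called, 30.4% higher and 10.4% lower. In KO it called 12 members, 9 higher and 3 lower (34.3%), where 35.9% of genes were called, 26.4% higher and 9.56% lower. The groups did not overlap for 22 members in Ctrl, 13 higher and 9 lower, against 54.1% of all genes, and for 18 in KO, 11 higher and 7 lower, against 47.9%. At an unadjusted p under 0.05 there were 18 members in Ctrl against 49.7% of all genes and 17 in KO against 45.2%. The shares of members called were close to those of all genes. Both genotypes gave the same call for 8 members, 7 higher and 1 lower, which are 53.3% of the Ctrl calls and 66.7% of the KO calls. Over all genes 2823 of 12091 (23.3%) were called the same way in both, 57.2% of the Ctrl calls and 65.0% of the KO calls. The 2 contrasts compare different libraries but come from the same fit and share its estimate of the spread, so their calls are not independent.

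TPM is scaled within each library, and each muscle has its own deposited table, so these contrasts compare values across tables. The median of all genes was 0.19 higher in soleus in Ctrl and 0.13 in KO on the log2 scale. Median-ratio scaling removed that shift, and the members then split into 9 higher and 14 lower in Ctrl and 6 higher and 10 lower in KO, while higher genes fell from 74.4% to 49.6% of all calls in Ctrl, and from 73.4% down to 48.8% in KO. Rescaling without mitochondrially encoded genes raised the KO median to 0.33, with 16 members higher and 2 lower. The distance from the median of all genes is therefore given beside the main differences between muscles. Bnip3, Bag3, Gabarapl1, Wipi1 and Atg13 were called in both contrasts under each of the 13 other settings and in each of the 12 fits that left out a library. Leaving out a library of the genotype not compared cannot change the difference itself, only the spread and the genes tested. Without soleus KO 3, the KO contrast called 11 members and the log2 differences of Bag3 and Gabarapl1 were 1.13 and 0.93.

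Bnip3 and Bnip3l are paralogous receptors on the outer mitochondrial membrane that mark mitochondria for autophagy. Bnip3 was at 135, 139 and 112 TPM in gastrocnemius Ctrl, 124, 111 and 133 in gastrocnemius KO, 301, 343 and 290.2 in soleus Ctrl and 312, 303 and 302 in soleus KO. Each soleus library was more than 2-fold above each gastrocnemius library. Bnip3 was 2.42-fold higher in soleus in Ctrl (log2 1.27, SE 0.11, 1.09 above the median of all genes, adjusted p = 5.17e-06) and 2.49-fold in KO (log2 1.31, SE 0.11, 1.18 above it, adjusted p = 4.7e-06). Bnip3l was not called, with 49.7 ± 4.71 TPM in gastrocnemius Ctrl and 55.4 ± 9.68 in soleus Ctrl and overlapping groups (adjusted p = 0.509). Bnip3 made up 65.9% to 74.4% of the summed TPM of the pair in gastrocnemius and 82.8% to 88.6% in soleus. Sqstm1 was not called, at 291 ± 18.2 TPM in gastrocnemius Ctrl and 275 ± 13.9 in soleus Ctrl.

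Bag3 was at 55.4, 64.3 and 50.2 TPM in gastrocnemius Ctrl and 165, 156 and 164 in soleus Ctrl, and at 74.8, 81.7 and 76.0 and 173, 169.6 and 120.1 in KO. The muscles did not overlap, and soleus KO 3 was the lowest soleus library. Bag3 was 2.86-fold higher in soleus in Ctrl (log2 1.51, SE 0.14, 1.32 above the median of all genes, adjusted p = 8.56e-06) and 1.99-fold in KO (log2 0.96, SE 0.14, 0.83 above it, adjusted p = 0.000262). Flnc, which encodes a client of BAG3 at the Z-disc, was at 78.5, 87.6 and 80.4 TPM in gastrocnemius Ctrl and 355, 299 and 270.4 in soleus Ctrl. It was 3.75-fold higher in soleus (log2 1.89, SE 0.21, adjusted p = 3.44e-05). Flnc is 1 of 11 wider genes of VCP cofactors and chaperone-assisted autophagy. Of these, 2 were called in Ctrl (18.2%, against 40.8% of all genes). In KO 6 were called, 5 higher and 1 lower (54.5%, against 35.9%). Vcp was not called in either genotype, with log2 differences of -0.24 and -0.19.

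Gabarapl1, the least abundant ATG8 gene in gastrocnemius, was at 26.9, 25.5 and 22.2 TPM in gastrocnemius Ctrl and 30.3, 32.9 and 28.4 in gastrocnemius KO. The soleus libraries, listed above, were higher than each of these, with the smallest gap at soleus KO 3. It was 3.05-fold higher in soleus in Ctrl (log2 1.57, SE 0.18, 1.38 above the median of all genes, adjusted p = 4.32e-05) and 1.68-fold in KO (log2 0.70, SE 0.18, 0.56 above it, adjusted p = 0.0097). Within the summed TPM of the 5 ATG8 genes, a share that does not depend on library scaling, Gabarapl1 took 4.83% to 6.55% in gastrocnemius and 8.68% to 15.1% in soleus. Gabarapl2 took 11.9% to 15.4% and 9.29% to 11.7%. Gabarap, at 150.4, 135 and 155 TPM in soleus Ctrl, was 1.55-fold higher than in gastrocnemius Ctrl (log2 0.62, adjusted p = 0.00161), but in KO the groups overlapped (log2 0.18, adjusted p = 0.251). Map1lc3b was lower in soleus in Ctrl (log2 -0.27, SE 0.09, adjusted p = 0.0294), a call lost after rescaling without mitochondrially encoded genes (adjusted p = 0.129) and when gastrocnemius Ctrl 1, gastrocnemius Ctrl 2, soleus Ctrl 1 or soleus Ctrl 3 was left out. With the replicate block 3 members were called lower in soleus in Ctrl, against 5 in the main fit, and those lost are not named here.

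**Figure D3:**
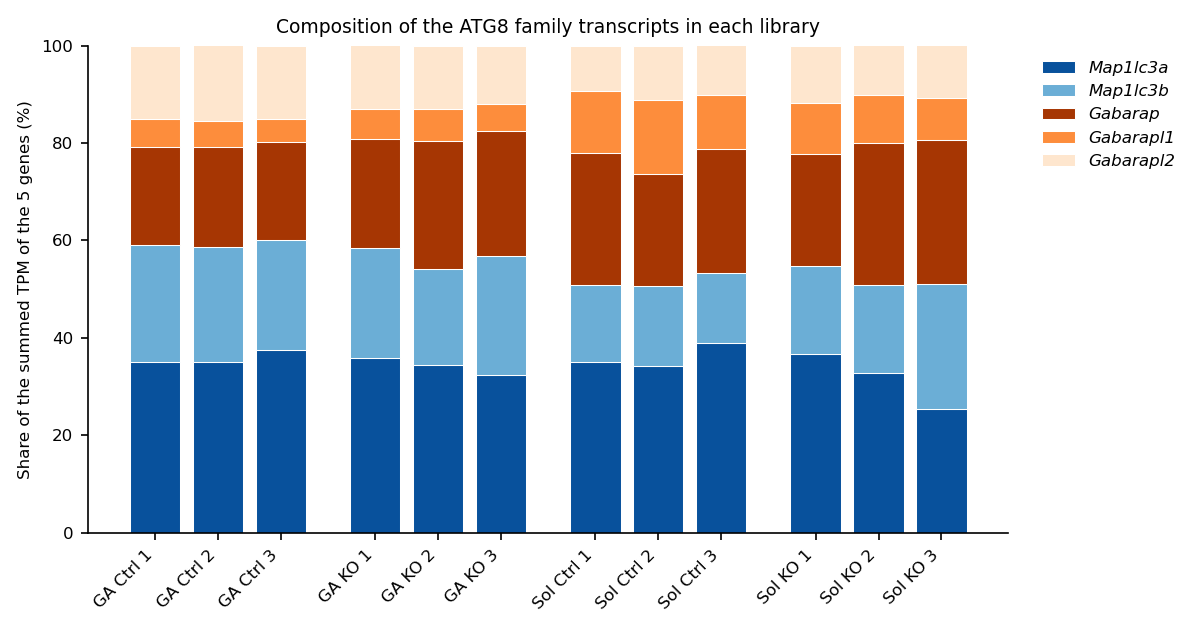
Share of each of the 5 ATG8 genes in their summed TPM (vertical axis, %, stacked to 100) in each of the 12 libraries, named by muscle (GA, gastrocnemius; Sol, soleus), genotype and replicate. Gabarapl1 takes 4.83% to 6.55% in gastrocnemius and 8.68% to 15.1% in soleus, and in soleus KO 3 the share of Map1lc3a is 25.4%, the lowest of the 12.

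Among the initiation genes Wipi1 was at 35.9, 37.3 and 32.4 TPM in gastrocnemius Ctrl, 34.6, 35.9 and 38.3 in gastrocnemius KO, 66.3, 61.3 and 63.0 in soleus Ctrl and 71.2, 64.9 and 58.2 in soleus KO. Atg13 was at 22.0, 21.9 and 22.4, 21.6, 19.1 and 21.6, 39.0, 38.9 and 36.9 and 48.8, 41.1 and 33.5 in the same order. The muscles did not overlap for either gene, and the genotypes lay close together within a muscle. Wipi1 was 1.81-fold higher in soleus in Ctrl (log2 0.84, SE 0.094, 0.65 above the median of all genes, adjusted p = 4.06e-05) and 1.79-fold in KO (log2 0.82, SE 0.094, adjusted p = 5.69e-05). Atg13 was 1.73-fold higher in Ctrl (log2 0.77, SE 0.12, 0.58 above the median, adjusted p = 0.000404) and 1.98-fold in KO (log2 0.94, SE 0.12, adjusted p = 0.000105). Wipi2 was not called, with log2 differences of -0.13 and 0.072, and Wipi1 made up 73.5% to 76.3% of the pair in gastrocnemius and 82.0% to 85.1% in soleus.

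ULK2 and ULK1 are the kinases that ATG13 binds. Ulk2 was lower in soleus in Ctrl, at 0.605 of the gastrocnemius mean (log2 -0.69, SE 0.084, -0.88 from the median of all genes, adjusted p = 6.96e-05). In KO the difference was -0.17 (SE 0.084, adjusted p = 0.128) and not called, and the change between genotypes is the one tested above. Ulk1 was not called in either genotype. Atg9a was at 48.3, 59.4 and 46.9 TPM in gastrocnemius Ctrl and 34.7, 30.7 and 39.4 in soleus Ctrl. It was lower in soleus (log2 -0.55, SE 0.17, adjusted p = 0.0209), a call lost without gastrocnemius Ctrl 2, soleus Ctrl 1 or soleus Ctrl 2, with adjusted p up to 0.0826. Becn1, Atg14 and Pik3c3 were not called. Of the conjugation genes Atg3 was higher in soleus in Ctrl (log2 0.58, SE 0.11, adjusted p = 0.00215), and in KO its log2 difference was 0.30 (adjusted p = 0.0644). Atg12 was lower in Ctrl (log2 -0.26, SE 0.078, adjusted p = 0.019), a call lost after rescaling without mitochondrially encoded genes (adjusted p = 0.111) and without gastrocnemius Ctrl 2, soleus Ctrl 1 or soleus Ctrl 2. Atg5 and Atg16l1 were called higher in KO with log2 differences of 0.25 and 0.24 (adjusted p = 0.029 and 0.0239). Both calls were lost with median-ratio scaling and quantile normalization and after correction for GC content and length (adjusted p = 0.604 and 0.748). A fit of only the 6 KO libraries lost both as well. With the replicate block 7 members were called higher in soleus in KO, against 9 in the main fit. The calls lost there were among Atg5, Atg16l1 and Ctsz. The Atg5 call was also lost without gastrocnemius KO 1 or 3 or soleus KO 2 or 3, and the Atg16l1 call without gastrocnemius KO 2 or 3 or soleus KO 1.

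**Figure D4:**
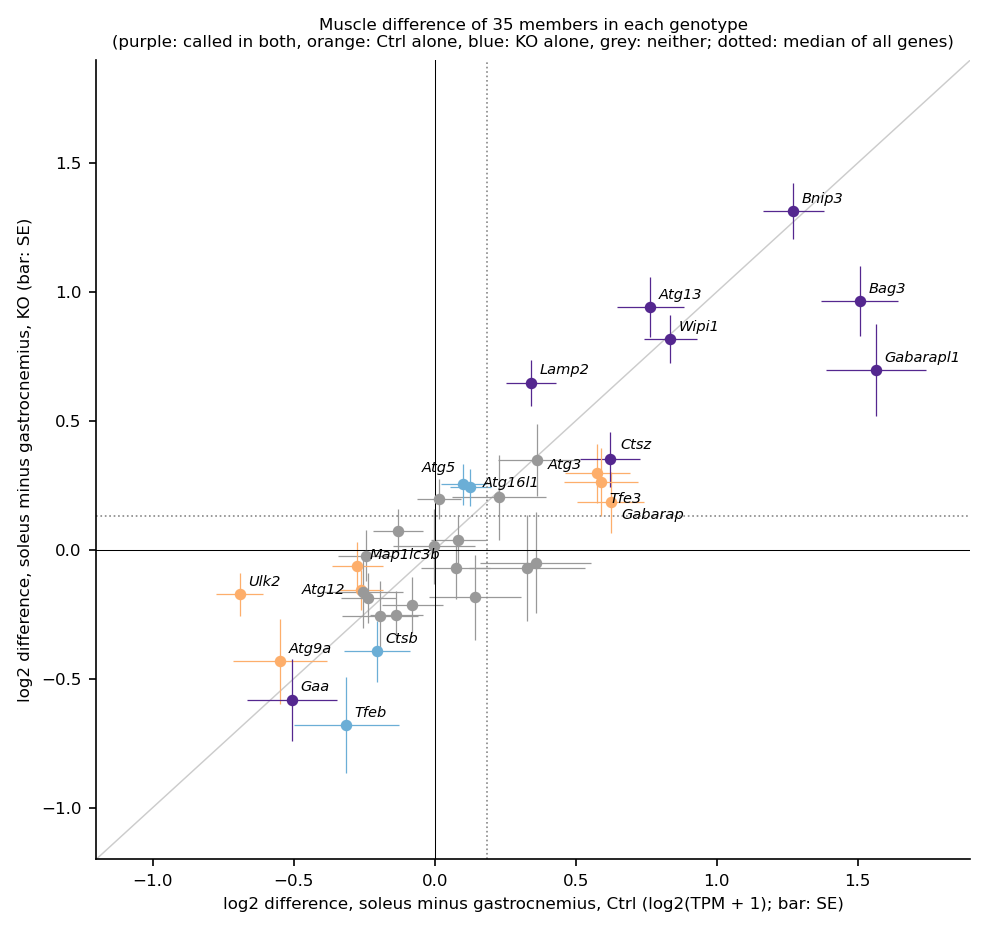
Log2 difference of soleus minus gastrocnemius of the 35 members in Ctrl (horizontal axis) and in KO (vertical axis), on the log2(TPM + 1) scale with SE bars, coloured by the genotypes in which a member was called, with dotted lines at the median of all genes. Bnip3 lies on the diagonal with 1.27 and 1.31, Bag3 and Gabarapl1 lie below the diagonal, and Gaa is the member called lower in both genotypes.

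In the lysosome, Gaa was lower and Lamp2 and Ctsz were higher in soleus in both genotypes. Gaa was at 81.5 ± 14.5 TPM in gastrocnemius Ctrl and 56.6 ± 1.29 in soleus Ctrl, and at 65.0 ± 5.19 and 43.7 ± 9.42 in KO (SD, n = 3). The log2 differences were -0.51 (SE 0.16, adjusted p = 0.0242) and -0.58 (SE 0.16, adjusted p = 0.0138). The Ctrl call was lost without a filter on low values, without gastrocnemius Ctrl 2, the highest library for Gaa, and without any of the 3 soleus Ctrl libraries, and the KO call without gastrocnemius KO 3, with adjusted p = 0.0529.

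Lamp2 was at 60.6, 59.3 and 59.4 TPM in soleus Ctrl and 57.8, 58.5 and 65.1 in soleus KO, above each gastrocnemius library of the same genotype. Its log2 difference was 0.34 in Ctrl (SE 0.09, 0.15 above the median of all genes, adjusted p = 0.0105) and 0.65 in KO (SE 0.09, 0.52 above it, adjusted p = 0.000221). The Ctrl call was lost with median-ratio scaling and quantile normalization, in which the adjusted p reached 0.493, and the KO call was kept in each alternative. Lamp1 was not called, at 207 ± 10.8 TPM in gastrocnemius Ctrl, 192 ± 5.43 in gastrocnemius KO, 209 ± 6.30 in soleus Ctrl and 220.5 ± 10.6 in soleus KO (SD, n = 3), with log2 differences between muscles of 0.016 and 0.20. Ctsz was 1.57-fold higher in soleus in Ctrl (log2 0.62, SE 0.11, 0.43 above the median, adjusted p = 0.000826) and 1.29-fold in KO (log2 0.35, SE 0.11, adjusted p = 0.0239). The KO call was lost with median-ratio scaling, quantile normalization and a fit of only the 6 KO libraries, and without gastrocnemius KO 3, soleus KO 1 or soleus KO 2, with adjusted p up to 0.0929. Ctsb was lower in soleus in KO (log2 -0.39, SE 0.12, adjusted p = 0.0221), a call lost after rescaling without mitochondrially encoded genes (adjusted p = 0.166) and without gastrocnemius KO 1 or soleus KO 3. Ctsa, Ctsd and Ctsl were not called in either genotype.

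The related transcription factors Tfeb and Tfe3 were each called between the muscles in 1 genotype, in opposite directions. Tfe3 was at 4.88, 4.03 and 4.03 TPM in gastrocnemius Ctrl and 7.40, 6.07 and 7.53 in soleus Ctrl, and Tfeb at 46.6, 37.8 and 45.4 in gastrocnemius KO and 29.7, 33.1 and 18.9 in soleus KO. In these groups the muscles did not overlap, and soleus KO 3 was the lowest for Tfeb. Tfe3 was higher in soleus in Ctrl (log2 0.59, SE 0.13, adjusted p = 0.00431) and had a log2 difference of 0.26 in KO (adjusted p = 0.144). Tfeb was lower in soleus in KO (log2 -0.68, SE 0.19, adjusted p = 0.0142), a call lost without gastrocnemius KO 1 (adjusted p = 0.0516), and had a log2 difference of -0.31 in Ctrl (adjusted p = 0.199). Tfe3 made up 7.75% to 12.1% of the summed TPM of the pair in gastrocnemius and 14.6% to 22.3% in soleus, ranges that do not overlap.

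The fibre make-up of the muscles moved with these differences. The summed level of 6 slow-fibre markers was 324 to 815 TPM in gastrocnemius and 14414 to 29445 in soleus, and that of 6 fast-fibre markers 64308 to 78730 and 15145 to 30172. In each genotype 5 of the fast-fibre markers were called lower in soleus and 1, Myh1, was called higher. The sum of 6 endothelial markers was 179 to 218 TPM in gastrocnemius and 277 to 364 in soleus, with none of these markers at 0 throughout a group. The part of fibre type and of vessel cells in the members' differences was not tested.

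A wider set of 146 genes of the same pathways, of which 144 were tested, was counted alongside the members. In gastrocnemius KO 22 of them were called, 11 higher and 11 lower (15.3%, against 14.3% of all genes), with a median log2 fold change of -0.024. Of the genes called, Cd63, a tetraspanin of late endosomes and lysosomes, was at 112, 115 and 123 TPM in Ctrl and 176, 203 and 175 in KO (log2 0.65, SE 0.079, adjusted p = 0.00636). Vamp8, a SNARE protein of autophagosome fusion, was at 31.4, 26.5 and 30.6 and 46.3, 47.2 and 43.5 (log2 0.62, SE 0.083, adjusted p = 0.00778). The groups of both genes were well separated. Lamtor2, a subunit of the complex that anchors nutrient sensing to lysosomes, and Atg4d rose with log2 fold changes of 0.55 and 0.38 (adjusted p = 0.0124 and 0.012).

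On the lower side, Prkaa2, which encodes the catalytic subunit of AMP-activated kinase typical of muscle, was at 37.0, 36.5 and 33.5 TPM in gastrocnemius Ctrl and 24.6, 23.8 and 25.3 in KO (log2 -0.52, SE 0.068, adjusted p = 0.00743). AMP-activated kinase phosphorylates ULK1 to start autophagy. Atg4a, a paralog of the ATG8 protease Atg4b, was at 14.7, 15.9 and 15.9 and 10.3, 10.1 and 10.5 (log2 -0.55, SE 0.069, adjusted p = 0.0066). Atg4a and Atg4d were called in opposite directions, and Atg4b was not called (log2 0.088). Rragd, a GTPase of lysosomal nutrient sensing, and Tecpr2, a protein that binds ATG8 proteins, fell with log2 fold changes of -0.50 and -0.46 (adjusted p = 0.0124 and 0.0184). Cd63, Vamp8, Atg4a, Atg4d and Prkaa2 were called in each of the 6 fits that left out a library. These genes were named for their small p among the 144 tested, so the 35 members are not a like set. Each such fit still set Ctrl libraries without Gm12338 against KO libraries with it. The part of that library difference in these calls was not tested. By group of the wider set, the share called is set against the 14.3% of all genes. None of the 15 proton pump subunits was called, and of 33 lysosomal hydrolases and their cofactors 2 rose and 1 fell (9.09%). The share was 42.9% for conjugation and LC3 processing (3 of 7) and 28.6% for receptors and adaptors (4 of 14). For lysosomal membrane and transport it was 26.7% (4 of 15). In soleus KO none of the 144 was called, and 11 had an unadjusted p under 0.05 (7.64% against 9.07% of all genes).

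Between the muscles the wider set split into 47 higher and 17 lower genes in Ctrl (44.4% called, against 40.8% of all genes) and 46 higher and 15 lower in KO (42.4%, against 35.9%). Retreg1, a receptor for autophagy of the endoplasmic reticulum, was at 65.1, 69.3 and 65.7 TPM in gastrocnemius Ctrl and 157, 324 and 183 in soleus Ctrl (log2 1.65, SE 0.20, adjusted p = 7.96e-05). Its soleus libraries were all more than 2-fold above the gastrocnemius libraries. The mitophagy adaptor Optn and the lysosomal iduronidase Idua were also higher in Ctrl, with log2 differences of 1.07 and 0.87 (adjusted p = 8.73e-05 and 1.48e-05). In KO the genes of smallest p on the higher side were Retreg1, the pump subunit Atp6v1c1, Atg10, an enzyme of ATG12 conjugation, and Fnip1, a partner of folliculin, with log2 differences of 2.01, 0.69, 0.96 and 1.5 (adjusted p = 2.13e-05, 2.87e-05, 3.25e-05 and 4.01e-05).

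Sort1, the sorting receptor sortilin, had the lowest log2 difference of the named genes. It was at 19.8, 18.9 and 17.7 TPM in gastrocnemius Ctrl and 3.78, 3.06 and 3.53 in soleus Ctrl (log2 -2.15, SE 0.088, adjusted p = 2.37e-08), and in KO the log2 difference was -1.79 (SE 0.088, adjusted p = 1.42e-07). Prkaa2, Tecpr2 and Rragd were lower in soleus in Ctrl as well, with log2 differences of -1.09, -1.12 and -0.93 (adjusted p = 3.36e-06, 4.34e-06 and 2.66e-05). In KO, Tecpr2, the dipeptidyl peptidase Ctsc and the glycogen-binding receptor Stbd1 were lower in soleus, with log2 differences of -0.74, -1.40 and -1.67 (adjusted p = 0.000118, 0.000234 and 0.000465). By group, 11 of the 33 lysosomal hydrolases and cofactors were higher in soleus in each genotype and 7 of the 15 proton pump subunits, while 1 hydrolase in Ctrl, 2 in KO and 2 pump subunits in each were lower. Of all genes 30.4% were called higher in Ctrl and 26.4% in KO.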

How the data were processed

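RNA-seq of 12 libraries was deposited by the authors as TPM, in 1 table per muscle. Genome build mm10 is given per the submitters' processing notes, and the sources used here name no aligner or quantifier. Counts and depth cannot be recovered from TPM, so counting error is unknown. Each library summed to 1000000 TPM, and no libraries were identical.

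Log2(TPM + 1) was tested with limma 3.58.1 in R 4.3.3 (trended empirical Bayes, two-sided, Benjamini-Hochberg adjustment over the genes averaging 1 TPM or more in the libraries fitted, called at 0.05). KO was fitted within each muscle on 6 libraries, and muscles and the difference of KO effects on all 12. Fold changes are on the log2(TPM + 1) scale, which understates those of low genes, whereas ratios are of mean TPM. The pipeline was tested on simulated data.

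Members and lists were chosen with earlier results of these data known. Per-library values were given for members called or of smallest p, and from the wider lists for up to 4 called genes of smallest p per direction. Alternatives were pseudocount, filter, scaling, variance model, replicate block and leaving out libraries. A correction for GC content and length was chosen after seeing the data. Motifs were searched in RefSeq promoters.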

Additional observations from a re-analysis of the deposited data

Results flagged for a closer look

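Prkaa2, a kinase subunit of the wider lists, was picked out because its KO effect differed between the muscles by the test of the difference itself. It was at 37.0, 36.5 and 33.5 TPM in gastrocnemius Ctrl, 24.6, 23.8 and 25.3 in gastrocnemius KO, 15.4, 17.0 and 16.2 in soleus Ctrl and 19.5, 16.8 and 20.0 in soleus KO. The soleus effect minus the gastrocnemius effect was 0.72 (log2, SE 0.12, limma adjusted p = 0.0434), and the adjusted p ranged from 0.0175 to 0.151 over the alternatives, which kept the call in 5 of 12 other settings and in 1 of 12 leave-one-out fits, that without soleus KO 2.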

How the results depend on the processing

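In gastrocnemius KO, the 6 members called became 2 without a filter, 2 without mitochondrially encoded genes and 1 in the fit of all 12 libraries, and the 1704 genes became 1113 without a filter and 524 in the fit of all 12. Leaving out 1 library gave 0 to 4 members and 547 to 1596 genes. In soleus KO the members stayed at 0, and the 9 genes became 0 without a filter, 5 at 5 TPM, 16 without mitochondrially encoded genes, 19 with array weights, 98 in the fit of all 12 and 0 with Gm12338 as a term (0 to 11 without 1 library). Between muscles in Ctrl the 15 members became 23 with median-ratio scaling, 23 with quantile normalization and 24 with GC and length correction (11 to 17 without 1 library, 3928 to 5676 genes). In KO the 12 members became 8 to 14 and the genes 3427 to 4434 without 1 library, and 6629 genes without mitochondrially encoded genes. For the difference between muscles, array weights gave 1 member and 292 genes, against 0 and 33. The genes became 14 at pseudocount 0.1, 21 with median-ratio scaling, 21 with quantile normalization, 16 without mitochondrially encoded genes and 16 with GC and length correction, and without 1 library 0 to 1 members and 1 to 308 genes. The difference for Ctsz reversed from -0.27 to 0.063 with GC and length correction. The causes were not tested. Phf2 in KO stayed at 66.6% to 78.0% of Ctrl in gastrocnemius and 55.1% to 66.5% in soleus without 1 library. Libraries with the same replicate number had correlations of deviations from -0.38 to 0.20. With so few libraries this cannot tell whether they share a mouse. With the replicate block the members called were 1, 0, 13, 10 and 0 in the 5 comparisons, with 722, 0, 4486, 3800 and 0 genes. The share of higher calls in gastrocnemius KO moved from 65.1% to 52.8% with GC and length correction and 49.4% in the fit of all 12, and that between muscles from 74.4% and 73.4% in Ctrl and KO to 47.8% and 51.1% with quantile normalization, 81.0% and 87.9% without mitochondrially encoded genes, and 48.8% in Ctrl with GC and length correction, and 2119 higher against 2122 lower genes in KO. Depth is unknown, so the counting error of the lowest members, such as Atg14, Tfe3 and Atg7, could not be estimated.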

Other observations

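Stbd1, which encodes a glycogen-binding protein proposed to carry glycogen to lysosomes, was picked here after its values were seen. It was at 39.3, 45.5 and 67.1 TPM in gastrocnemius Ctrl and 90.0, 97.4 and 85.8 in KO, and at 9.86, 13.3 and 18.2 in soleus Ctrl and 39.2, 26.7 and 20.8 in KO. Each KO library was above each Ctrl library of its muscle. In limma the log2 fold change was 0.87 in gastrocnemius (SE 0.18, adjusted p = 0.0242), called in 1 of 6 leave-one-out fits, and 1.01 in soleus (SE 0.27, adjusted p = 0.309), which was not called. Gaa, the lysosomal enzyme that digests glycogen, was lower in each KO library than in each Ctrl library in both muscles and was called in neither.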
